A study of Mus musculus with 4 samples.

Results

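The aryl hydrocarbon receptor (AHR) and genes under its control were followed across cultures of NIH-3T3 cells, an established line of mouse fibroblasts. The set holds 7 genes, namely Ahr, Arnt, Ahrr, Aldh3a1, Cyp1a1, Cyp1b1 and Tiparp, out of 36838 gene entries on the array. Of these entries 20895 have a symbol, and 15943 are known here by accession only and count as genes in the shares of all genes. Its members are all gene probes whose accession maps to 1 of these symbols, which gave 12 probes out of 55681, each printed as 1 spot on each of the 4 arrays. All cells carried the label WT. The untreated culture has no treatment on its label, while the other cultures were grown to confluency and then kept for 24 h with AR7, CA39 or CA77 at 20 µM. These small molecules bind the retinoic acid receptor alpha and were made to activate chaperone-mediated autophagy, the transport of single proteins into lysosomes. Each compound was dissolved in DMSO, and whether the untreated culture also received DMSO is not given in the sources used here, so a part of the solvent in the differences from untreated was not tested. There was 1 array per group, so no test was possible and no difference has a replicate check.

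AHR is a transcription factor of the bHLH-PAS family that waits in the cytosol with chaperones until it binds a ligand, such as dioxins, polycyclic aromatic hydrocarbons or breakdown products of tryptophan. It then moves to the nucleus, pairs with ARNT and binds DNA at sites called xenobiotic response elements. Its targets include enzymes that oxidize and conjugate the ligand, and a pair of feedback inhibitors, AHRR and TIPARP. In most tissues induction of Cyp1a1 is the usual sign of an active receptor, and in fibroblasts Cyp1b1 is the CYP1 enzyme known to be expressed.

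The arrays lay on 1 slide, the untreated array in row 1 and the treated arrays in row 2, so a difference between untreated and all treated arrays cannot be told apart from one between the rows of the slide. The CA77 array was read in scan 2 and the others in scan 1, numbered here from the scan dates. A difference between CA77 and the other arrays thus cannot be told apart from one between the scans. Of 55378 probes with a value on every array, between 52.2% and 69.7% were well above background. Of 8 fibroblast markers, 7 were well above background on all arrays and Pdgfrb was so with CA39 alone. Of the markers of other cell types, 2 of 4 epithelial genes (Krt8 and Krt18), 1 of 3 leukocyte genes with a probe (Csf1r), 3 of 4 endothelial genes (Pecam1, Cdh5 and Kdr) and 1 of 4 hepatocyte genes (Cyp2e1) were well above background on every array. Alb, Ttr, Apoa1, Cdh1 and Tie1 were so on none. Values below are normalized log2 signals. The difference of 2 arrays has a tolerance of 0.16 (log2), which comes from probes printed 10 times per array. The tolerance covers the error within an array only, and not that between cultures.

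Aldh3a1 and Cyp1b1 were the members that differed from untreated by over 2-fold, each with 2 of the 3 compounds, of which they shared CA77. Aldh3a1 was 16-fold higher with AR7 and 12.0-fold higher with CA77, while with CA39 it was within the tolerance of untreated. Cyp1b1 was 2.54-fold higher with CA39 and 2.21-fold higher with CA77, and within the tolerance with AR7. Ahr was 1.73-fold higher with AR7 and 1.41-fold higher with CA77. Arnt stayed within the tolerance by its brightest probe on all treated arrays. For Cyp1a1 and Ahrr, no array had a spot well above background.

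**Figure D1:**
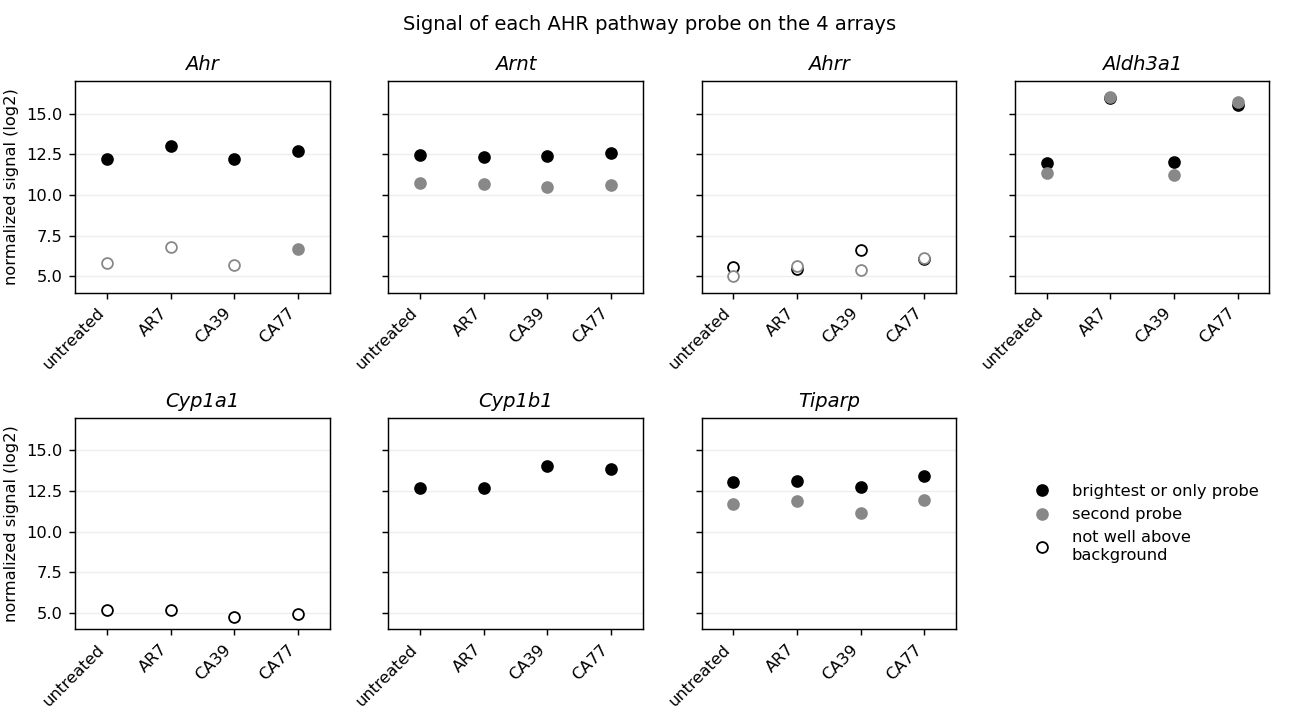
Normalized signal (log2, vertical axis) of every probe of the 7 genes on each of the 4 arrays, with 1 point per array and probe, filled where the spot was well above background. Both Aldh3a1 probes lie between 11.20 and 11.99 on the untreated and CA39 arrays and at or above 15.54 on the AR7 and CA77 arrays, and Cyp1a1 and Ahrr are open on every array.

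By the count of genes past 2-fold, 1 of 5 members compared was higher with AR7, where 1.81% of all genes compared were higher, and 0 were lower, where 0.384% of all genes were. With CA39 the count was 1 higher and 0 lower, against 3.71% and 1.11% of all genes. With CA77 it was 2 higher and 0 lower, against 1.94% and 0.537% of all genes. Among genes well above background on all 4 arrays, as the 5 members were, the shares higher were smaller, at 0.597% (AR7), 2.22% (CA39) and 0.50% (CA77), as were those lower, at 0.223%, 1.1% and 0.340%. Of all calls with CA77, 78.4% were higher, against 65.4% with each array scaled to its 75th percentile and 59.5% among genes well above background on all arrays. The 5 members compared, namely Ahr, Arnt, Aldh3a1, Cyp1b1 and Tiparp, were well above background on all 4 arrays, and the other 2 could not be compared. The members were chosen with earlier results of these data known. Their counts, here and between compounds below, are therefore no test against the shares of all genes.

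The receptor itself was read by a pair of Ahr probes. The brighter probe had a normalized log2 signal of 12.18 on the untreated array, 12.98 with AR7, 12.18 with CA39 and 12.68 with CA77. Thus AR7 was highest, CA77 next, and CA39 and untreated were level. Against untreated, AR7 differed by 0.79, CA39 by -0.01 and CA77 by 0.49 (log2). Among genes measured on both arrays, 1.84% were as far above untreated as Ahr with AR7, and 3.76% with CA77. CA77 minus AR7 was -0.30, and CA77 minus CA39 was 0.50. The second Ahr probe was dim, with a net signal, which is spot signal after background subtraction in scanner units, of 25.9 on untreated, 66.5 with AR7, 4.63 with CA39 and 59.3 with CA77. It was well above background with CA77 alone, where it was at least 1.76-fold higher than the floor of the untreated array, or 0.82 on the log2 scale. This bound lay between 0.38 and 1.54 (log2) over the processing settings tried. The floor is the 1st percentile of detected signal.

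ARNT, the partner that AHR needs to bind DNA, showed the smallest span of the members compared, 0.24 (log2). The brighter Arnt probe read 12.43 on untreated, 12.32 with AR7, 12.42 with CA39 and 12.55 with CA77 (log2). Its differences of -0.11, -0.01 and 0.12 were all within the tolerance. The second probe differed by -0.04, -0.19 and -0.11 in the same order, of which CA39 lay just outside it and within the wider 0.26. The probes gave opposite signs for CA77.

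**Figure D2:**
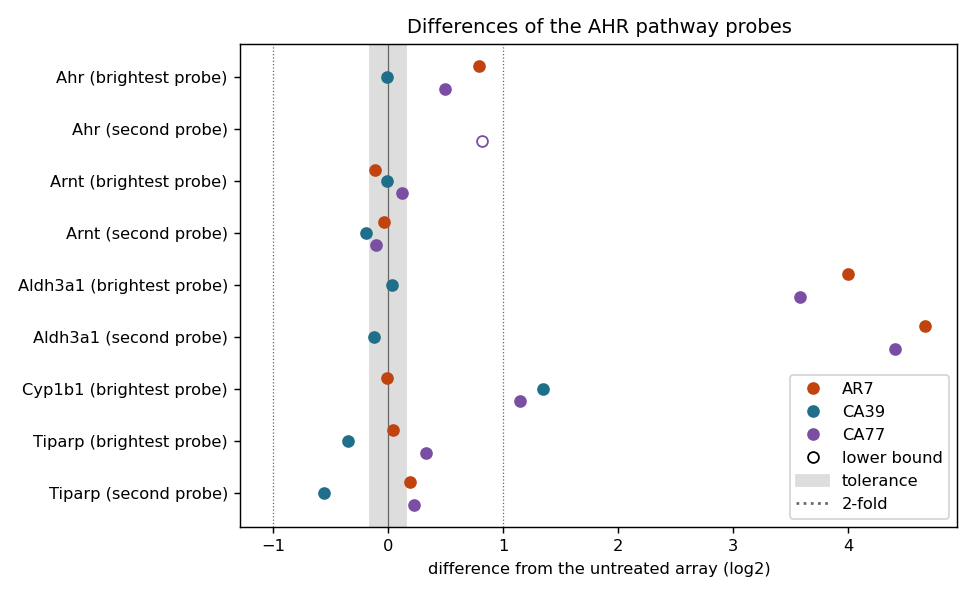
Difference from the untreated array (log2, horizontal axis) for each probe well above background on at least 1 of the arrays compared, coloured by compound, with the tolerance of 0.16 shaded and 2-fold dotted. The AR7 and CA77 points of Aldh3a1 lie between 3.58 and 4.67, and the CA39 and CA77 points of Cyp1b1 at 1.34 and 1.14.

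The promoters of the targets are given first, as a description of sequence. RefSeq sequences on GRCm38.p6, from 250 bases before to 50 after a gene's start, matched 5 of the 7 members. Ahr and Aldh3a1 were not among them. The 5 letters GCGTG, the core of the xenobiotic response element, are in capitals below, as is the reverse complement CACGC where the core lies on the opposite strand. Of all 32851 promoters of this length, 32.4% hold the core on either strand. Shown are Cyp1b1 (chr17:79715012-79715311, minus strand), Cyp1a1 (chr9:57697363-57697662, plus strand), Tiparp (chr3:65528197-65528496, plus strand) and Ahrr (chr13:74292282-74292581, minus strand), each written along its own gene.
Cyp1b1: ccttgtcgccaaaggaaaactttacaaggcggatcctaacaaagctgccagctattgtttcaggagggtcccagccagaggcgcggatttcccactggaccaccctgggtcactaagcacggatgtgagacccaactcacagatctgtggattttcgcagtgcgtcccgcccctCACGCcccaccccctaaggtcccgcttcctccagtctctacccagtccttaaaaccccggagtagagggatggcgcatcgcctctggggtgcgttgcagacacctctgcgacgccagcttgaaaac
Cyp1a1: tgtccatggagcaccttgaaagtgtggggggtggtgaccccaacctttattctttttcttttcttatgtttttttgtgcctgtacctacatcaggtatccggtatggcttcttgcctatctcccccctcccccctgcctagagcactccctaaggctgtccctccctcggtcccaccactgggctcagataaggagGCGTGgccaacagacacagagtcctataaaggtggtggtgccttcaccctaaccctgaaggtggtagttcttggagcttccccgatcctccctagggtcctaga
Tiparp: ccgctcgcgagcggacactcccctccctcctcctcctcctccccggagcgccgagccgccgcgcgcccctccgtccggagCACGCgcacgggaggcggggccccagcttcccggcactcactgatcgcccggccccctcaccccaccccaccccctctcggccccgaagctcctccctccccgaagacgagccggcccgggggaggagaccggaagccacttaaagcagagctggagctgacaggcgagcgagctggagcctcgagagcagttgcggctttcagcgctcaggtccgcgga
Ahrr: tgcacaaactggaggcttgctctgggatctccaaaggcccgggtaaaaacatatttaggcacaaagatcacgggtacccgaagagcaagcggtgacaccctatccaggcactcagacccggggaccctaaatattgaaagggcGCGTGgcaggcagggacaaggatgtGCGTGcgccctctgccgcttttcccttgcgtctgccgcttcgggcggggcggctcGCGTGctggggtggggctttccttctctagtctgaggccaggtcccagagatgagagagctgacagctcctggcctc

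The core begins 76 bases before the start in Cyp1b1, 170 in Tiparp and 54 in Cyp1a1, each with 1 match. Ahrr holds 3 matches, the nearest at 82 and 27 bases before its start, and 3.92% of promoters hold 3 or more. Arnt, which is no classical target, also holds 1 match, at 29 bases. A match of these letters is a description and not a binding site. Sequence outside this window was not searched, and a part of the matches in the readings was not tested. The readings of these genes follow.

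Among the target enzymes, Aldh3a1 encodes an aldehyde dehydrogenase that oxidizes aromatic and lipid-derived aldehydes and is a classical member of the AHR gene battery. The brightest probe had a net signal of 3997 on the untreated array, 67959 with AR7, 4257 with CA39 and 44321 with CA77 (scanner units). The same probe read 11.96, 15.95, 11.99 and 15.54 as normalized log2 signal, in that order. The AR7 and CA77 arrays thus stand together far above the untreated and CA39 arrays. No spot of any array was saturated.

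The second Aldh3a1 probe gave the same grouping. Its net signals were 2531 on untreated, 69369.5 with AR7, 2382 with CA39 and 50234 with CA77. On the log2 scale the brightest probe differed from untreated by 4.0 (AR7), 0.04 (CA39) and 3.58 (CA77), and the second by 4.67, -0.12 and 4.41, or 25.4-fold and 21.2-fold higher with AR7 and CA77. The probes differed by 0.67 with AR7 and by 0.83 with CA77, which is beyond the tolerance, so the size of the difference is less sure than its direction. Only 9 genes, Aldh3a1 included, were as high with AR7 among 21654 measured on both arrays, and 12 of 24364 with CA77. Over all processing settings tried, the differences stayed between 3.97 and 4.81 with AR7 and between 3.57 and 4.47 with CA77 over both probes.

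Cyp1b1 encodes a cytochrome P450 of the CYP1 family that oxidizes aromatic hydrocarbons and oestrogens. It was read by 1 probe, with a normalized log2 signal of 12.68 on untreated, 12.67 with AR7, 14.03 with CA39 and 13.83 with CA77. Its net signals were 6589.6, 6928, 17575 and 13847 (scanner units) in the same order. Here CA39 and CA77 were high, and AR7 and untreated were level. The differences from untreated were -0.01, 1.34 and 1.14 (log2). Of the genes measured on both arrays, 2.08% were as far above untreated with CA39 and 0.903% with CA77.

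On the CA39 array the summed signal of the 4 epithelial markers was also higher, at 10.56 (log2) against 8.30 to 8.71 on the other arrays, with 3 of the 4 well above background and Cdh1 on none. The 8 fibroblast markers summed to 20.24 with CA39 and to between 19.63 and 19.88 on the other arrays. On the CA77 array, where Cyp1b1 was also high, these sums were 8.30 and 19.70. The part of these markers in the Cyp1b1 difference was not tested.

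Cyp1a1, the best known AHR target, was read by 1 probe, which failed the scanner's test against background on all 4 arrays. Its net signals were 6.64 on untreated, -17.9 with AR7, -24.2 with CA39 and -10.9 with CA77 (scanner units). The spot was thus at the level of the background on all arrays, and no fold can be given. Cyp1a2, the liver enzyme beside it in the CYP1 family, likewise had no array well above background.

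The feedback inhibitors were read next. TIPARP is an ADP-ribosyltransferase that limits AHR activity and is itself induced by AHR. Its brighter probe read 13.07 on untreated, 13.11 with AR7, 12.73 with CA39 and 13.40 with CA77 (log2). CA39 was the lowest array and CA77 the highest. The differences were 0.04, -0.35 and 0.33, and those of the second probe were 0.19, -0.56 and 0.23. Both probes thus put CA39 below untreated and CA77 above it by more than the tolerance and by less than 2-fold. For AR7 only the second probe was outside the tolerance. At the wider tolerance of 0.26, the second probe was within it for both AR7 and CA77. Such differences were common. Of the genes measured on both arrays, 13.9% were as far below untreated as the brighter Tiparp probe with CA39 and 4.81% as the second, while 7.93% and 13.9% were as far above it with CA77.

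AHRR competes with AHR for ARNT. Its first probe had net signals of 14.4 on untreated, -7.29 with AR7, 52.6 with CA39 and 28.0 with CA77. Its second probe had 4.98, 1.99, -8.67 and 27.8. None of these spots was well above background, and the highest array differed between the probes.

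**Figure D3:**
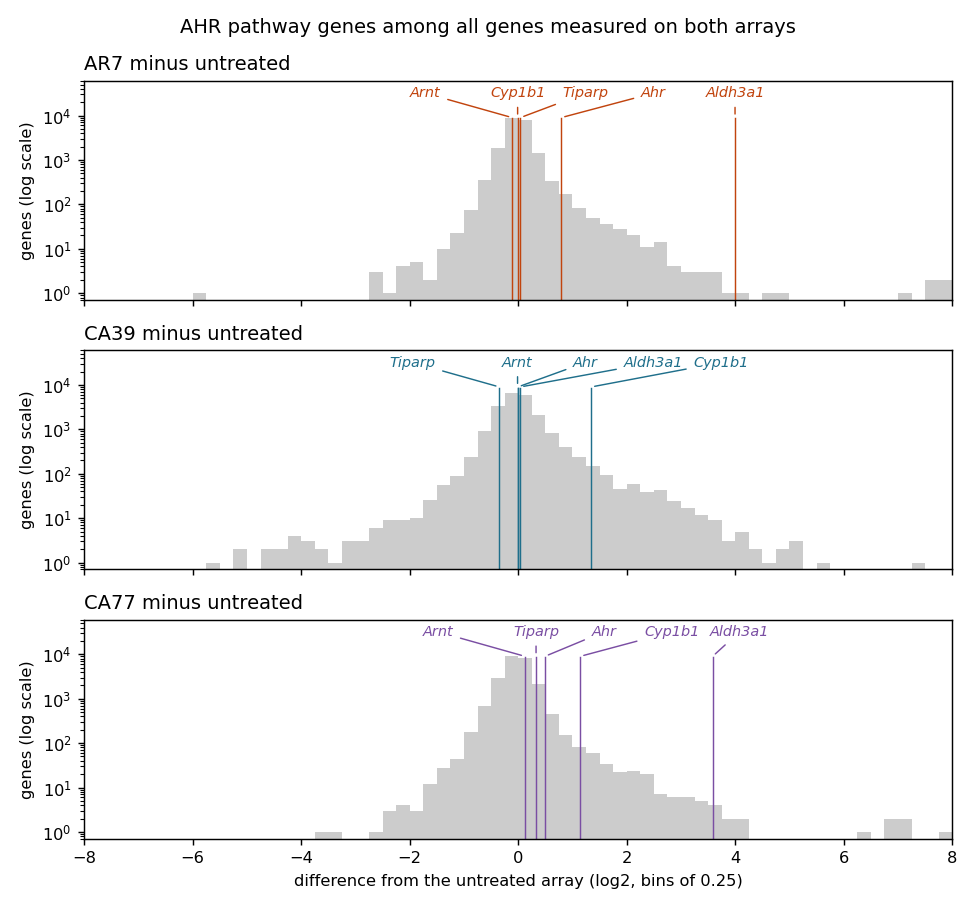
Number of genes (log scale, vertical axis) by difference from the untreated array (log2, horizontal axis), for genes measured on both arrays, with the members marked by lines, 1 panel per compound. Aldh3a1 lies in the outer right tail with AR7 (4.0) and CA77 (3.58) and in the centre with CA39 (0.04), and the Cyp1b1 line is at 1.34 with CA39 and 1.14 with CA77.

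The compounds were then set against each other, at the same dose and time, in 3 pairs of single arrays and without a test. Between CA39 and AR7, 2 of 5 members were past 2-fold, against 6.15% of all genes compared. Aldh3a1 had a difference (log2, CA39 minus AR7) of -3.96 by its brightest probe and -4.79 by the other, and Cyp1b1 one of 1.35. Ahr, at -0.80, and Tiparp, at -0.39 and -0.75, were also lower with CA39 than with AR7, by less than 2-fold. Between CA77 and AR7 there was 1 such member, against 2.58% of all genes. This was Cyp1b1, which was higher with CA77 by 1.16. For Aldh3a1, CA77 minus AR7 was -0.41 and -0.26. Between CA77 and CA39 there was again 1 member, against 6.22% of all genes. This was Aldh3a1, higher with CA77 by 3.55 and 4.53, while Cyp1b1 differed by -0.20 and Tiparp by 0.68 and 0.79. CA77 was thus the compound with both Aldh3a1 and Cyp1b1 past 2-fold above untreated, and AR7 and CA39 each had 1 of them.

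The genes with the most similar pattern were sought for the members that spanned at least 1 log2 unit over the arrays, which were Aldh3a1 (4.0) and Cyp1b1 (1.35). Likeness was the Euclidean distance between log2 values over the 4 arrays, each gene centred on its own mean, among 13018 other named genes well above background on all arrays. Nearest to Aldh3a1 were the glutathione transferases Gsta3, at a distance of 0.47, and Gsta4, at 0.80, and then Serpinb9d at 1.71. The differences of Gsta3 from untreated were 3.68 (AR7), -0.05 (CA39) and 2.98 (CA77). Gsta4 differed by 4.70, 1.16 and 4.18. Related glutathione transferases can share signal on 1 probe. Among the nearest to Cyp1b1 were Cpa6 at 0.29 and Egr2 at 0.47. For Cpa6, a carboxypeptidase, the differences from untreated were -0.31 (AR7), 1.08 (CA39) and 1.17 (CA77). The transcription factor Egr2 had -0.62, 0.94 and 0.62. With 4 arrays, such distances describe these arrays only.

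Other genes of the pathway came from a list of 23, of which Ugt1a7c and Gsta1 were matched to no probe. The list was also chosen with earlier results of these data known, so its counts are no test against the shares of all genes. Out of 19 compared each time, 2 were over 2-fold higher with AR7 (Nqo1 and Ugt1a6b) and 1 with CA77 (Nqo1), while CA39 had 0. Of all genes compared, 1.81%, 1.94% and 3.71% were so with AR7, CA77 and CA39. With another scaling, the quantile-normalized processed signal, the list's counts were 4 with AR7 and 2 with CA77, and the shares of all genes were 2.65% and 3.66%. The count of lower genes was 0 for each compound. Arnt2, Nqo1 and Ugt1a6b, 3 of 18 compared, were over 2-fold lower with CA39 than with AR7 and also than with CA77, where 6.15% and 6.22% of all genes compared differed in either direction. The median difference was 0.03 for AR7 over 18 measured genes, -0.07 with CA39 over 16 and 0.11 with CA77 over 18, beside -0.01, -0.03 and -0.02 for all genes.

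The 8 genes of the receptor complex and its coactivators were all under 2-fold. Within the tolerance were 7 of them for AR7, 7 for CA39 and 6 for CA77, beside 60.3%, 41.4% and 51.7% of all genes measured on both arrays. Nearest to no change was Ptges3, the p23 co-chaperone, which by its brightest probe differed by -0.00 with AR7, by -0.07 with CA39 and by 0.09 with CA77. Its other probes were lower with CA39, at -0.31, -0.21 and -0.29. Farthest, by the mean size over the compounds, was Ncoa2, a coactivator, at -0.20, 0.18 and -0.15 in the same order.

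Among proteins of the same family as ARNT, Arnt2, which can take its place, read 9.02 on untreated, 9.87 with AR7, 8.26 with CA39 and 9.60 with CA77 (log2). Its differences were 0.85 (AR7), -0.75 (CA39) and 0.58 (CA77), each less than 2-fold. Hif1a, the oxygen-regulated partner of ARNT, differed by -0.01, 0.42 and -0.00 in the same order. Epas1, its relative, differed by -0.18, -0.26 and -0.32 by its brightest probe. The other Epas1 probes were well above background on no array.

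Among the conjugating and reducing enzymes of the battery, AR7 and CA77 were the high arrays for Nqo1 and Ugt1a6b. Nqo1, a quinone reductase that is also a target of NRF2, read 10.94 on untreated, 13.19 with AR7, 11.31 with CA39 and 13.23 with CA77 (log2). It was 4.76-fold higher with AR7, 1.29-fold with CA39 and 4.90-fold with CA77. Ugt1a6b, which glucuronidates phenols, read 13.85, 15.01, 13.50 and 14.68 in that order. Its brighter probe gave 1.16 for AR7, -0.35 for CA39 and 0.83 for CA77, and its second probe 1.09, -0.52 and 0.93. Ugt1a6a and Ugt1a6b are close copies within 1 gene cluster, so which of them a probe measured is uncertain. Ugt1a6a was well above background on untreated and CA77 only, where it was higher by 0.60. Cyp2s1 was so on untreated and AR7 only, with a difference of 0.78. Ugt1a6a read 5.94 on untreated and 6.55 with CA77, and Cyp2s1 read 6.10 on untreated and 6.88 with AR7 (log2). These readings are near the floors, which differ between arrays, at 5.87 (untreated), 6.82 (AR7) and 6.26 (CA77). The size of both differences is therefore unsure.

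Of the other inducible targets, Serpinb2, a protease inhibitor, had no array well above background. Slc7a5, an amino acid transporter, gave -0.44 for AR7, 0.29 for CA39 and -0.43 for CA77, and its second probe -0.24, -0.46 and -0.50, so its probes disagree for CA39. Ereg, a growth factor, differed by -0.28, 0.04 and -0.01. Nfe2l2, which encodes NRF2, differed by 0.20, -0.22 and 0.46. Socs2, an inhibitor of cytokine signalling, differed by its brightest probe by 0.68 with AR7 and by 0.18 with CA77. That probe read 6.29 on untreated, 6.97 with AR7 and 6.47 with CA77 (log2), near the floors of these arrays. Its other 2 probes were not well above background with AR7. For CA77, 1 of them gave 0.17 and the other was not well above background.

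**Figure D4:**
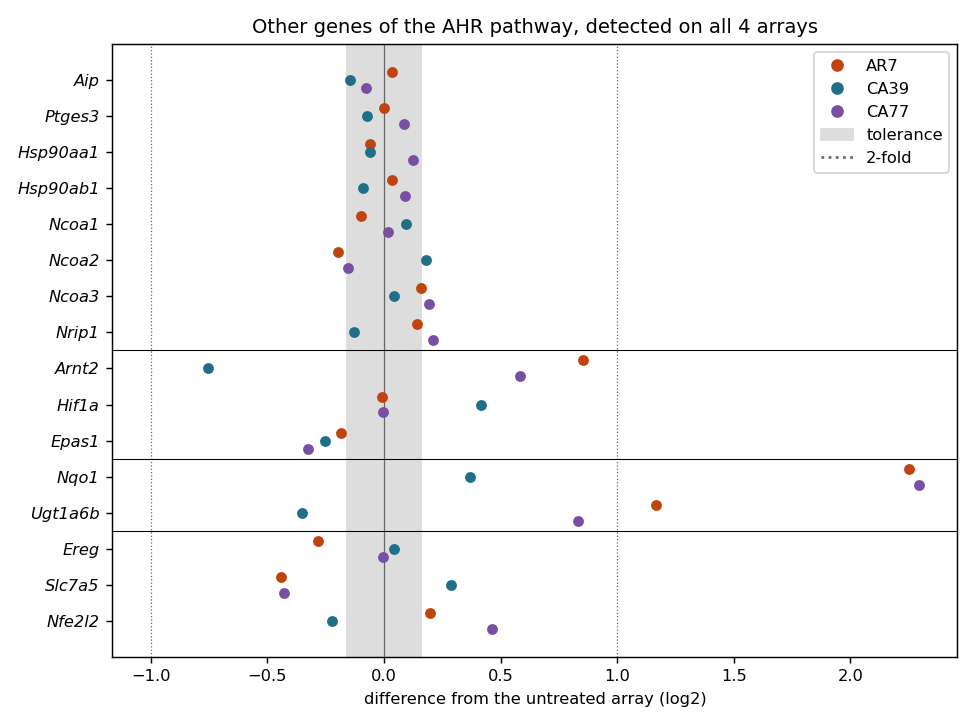
Difference from the untreated array (log2, horizontal axis) of the brightest probe of each other pathway gene well above background on all 4 arrays, coloured by compound, with the tolerance of 0.16 shaded, 2-fold dotted and role groups divided by lines. Nqo1 lies at 2.25 with AR7 and 2.29 with CA77, Arnt2 has its CA39 point at -0.75 on the other side of 0 from AR7 and CA77, and the chaperones and coactivators at the top lie between -0.20 and 0.21.

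The position of the spots was compared with the readings, since neighbouring spots can deviate together on an array. For the 24 member differences from untreated measured on both arrays, the median difference of 54 to 80 gene spots within 5 rows and 5 columns lay between -0.15 and 0.06 (log2). Subtracting it moved each of these differences by less than the tolerance. It brought 2 readings given above as outside the tolerance to within it, the second Arnt probe with CA39, from -0.19 to -0.07, and the second Tiparp probe with AR7, from 0.19 to 0.15.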

How the data were processed

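Total RNA of 4 cultures was labelled with Cy3 by the authors and hybridised to Agilent mouse arrays, 1 per group, and spots were read with Feature Extraction 10.7.3.1 per the file headers. Each deposited scanner value is the linear intensity of 1 spot, given with marks of 0 or 1 for detection and outliers. The deposited series table held the background-subtracted intensity of all 62976 spots, although the methods name RMA (oligo), so the values were rebuilt from the scanner signals. This follows RMA only in part, in its normexp model, quantile normalization and log2 scale, but with local background subtracted and with means of spots in place of median polish.

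Median spot intensity and local background were corrected by normexp without an offset (limma 3.58.1, R 4.3.3), over all spots. The planned mean was replaced by the median, which the scanner values give. The 3363 positive and 308 negative control spots of each array were left out, as were 142 to 328 outlier spots per array, arrays were quantile normalized, and spots of a probe were averaged on the log2 scale. Detection of a probe needed more than 50% of its spots to pass the scanner's test against background. Undetected values were raised to the 1st percentile of detected signal of their array (5.87 to 6.88, log2), since the lowest detected signal of the AR7 array (3.79) stood apart from the other arrays (5.15 to 6.21). A fold against that floor is a lower bound, and a difference whose higher side was undetected was given no value in medians. A gene was represented by its probe with the highest mean.

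Accessions were matched without versions to RefSeq GRCm38.p6, which named 27512 of 55378 probes. Probes without a symbol were grouped by accession. Promoter positions are those of RefSeq. A gene was called at a log2 difference of at least 1 in size. With 1 array per group no test was run. The processing was tested on simulated data. The members and lists were chosen with earlier results of these data known. Named are all members, list genes past 2-fold, and per role those nearest to and farthest from no change by mean size. Epas1, Nfe2l2, Socs2, Cyp2s1, Ugt1a6a, Cyp1a2 and Serpinb2 fall outside this rule and were added after their values were seen, to account for their groups. Alternatives were another offset, other scalings, the series table, other floors, probes detected on all arrays, neighbouring spots, a 1.5-fold threshold and the mean over probes. Cells treated with the antagonist BMS614 were not analysed here. Of the genes the naming rule gives, 1 is not reported here.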

Additional observations from a re-analysis of the deposited data

How the results depend on the processing

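Under the 5 settings that rescale the signal or correct it, 121 of 125 differences of member probes stayed within the tolerance of 0.16 of their value. The settings of floor and filter cannot alter a probe detected on both arrays and are not counted. The other 4 differences belong to the dim second Ahr probe with CA77, whose bound went from 0.82 to 0.50 with a background offset of 50, 1.15 with each array scaled to its 75th percentile, 1.54 with the quantile-normalized processed signal and 0.38 with the deposited series table. All 27 medians of the list of other pathway genes, under the 9 settings other than the threshold, stayed within the tolerance. Of 108 counts past 2-fold, 105 stayed within 1.5 times their value. With the quantile-normalized processed signal, pathway genes past 2-fold higher were 4 with AR7 and 2 with CA77, where the shares of all genes were 2.65% and 3.66%. With no floor and no filter, members higher with CA39 were 2, since Ahrr then entered, beside 3.78% of all genes. With a 1.5-fold threshold, which admits smaller differences by construction, 4 of 12 counts moved by more than that. Members higher with AR7 were 2, and pathway genes were 5 higher with AR7 (3.29% of all genes), 1 lower with CA39 (3.81%) and 3 higher with CA77 (3.81%). Scaling to the 75th percentile put the median of all genes at -0.11 with CA39. No paired analysis was possible because each group holds 1 array, and for the same reason no replicate could be left out. Dim spots (Cyp1a1, Ahrr, Cyp1a2 and Serpinb2) set no upper limit on the transcript.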
